A study of Mus musculus with 4 samples.

Results

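Nkx2-5, Nkx2-6 and Nkx2-3, the Nkx2 genes best known from the heart and the pharynx, were followed through single-cell libraries of the mouse Mesp1 lineage. The members were found by symbol among the 27998 genes of the count tables, and all 3 had a row in each of the 4 libraries. At least 1 unique molecular identifier (UMI, the tag that marks a captured RNA molecule) of any member was found in 1363 of 7118 retained cells of the E8.0 library, 608 of 2884 of E8.25, 929 of 3921 of E9.5 and 829 of 7525 of E10.5. Where 4 values follow each other below, they are those of the libraries in this order.

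Nkx2 genes encode homeodomain transcription factors related to the fly gene tinman. Nkx2-5 acts in cardiac progenitors and in beating myocardium, where it partners Gata4 and Tbx5 and is needed for the heart tube to grow and loop. Nkx2-6 is known from the pharyngeal region and the outflow tract, and Nkx2-3 from the pharyngeal endoderm and the mesoderm of gut and spleen. The mesoderm of the pharynx gives rise to the anterior part of the second heart field (aSHF), which adds muscle to the outflow tract and right ventricle, and to the branchiomeric muscles (BrM) of the face, jaw and neck. The posterior second heart field (pSHF) adds cells to the inflow side and atria.

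The embryos were Mesp1Cre;Rosa26-GFPflox/+ on a Swiss Webster background, in which Cre made by early Mesp1-expressing mesoderm switches on GFP for good in that mesoderm and its descendants. Every library was made from GFP+ DAPI- sorted cells of pooled embryos, so there was no unmarked control and no separate embryo to count as a replicate. The E8.0 and E8.25 libraries came from the upper body, and the E9.5 and E10.5 libraries from the pharyngeal apparatus and heart. With 1 library a stage, stages were compared by their values and counting intervals with no test, and between the earlier and the later pair of libraries stage cannot be told apart from the dissected region.

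Retained cells held a median of 15205 to 35216 UMIs, the E8.25 library being the deepest and the smallest. Libraries shared 16 to 88 cell barcodes a pair, 0.541% to 1.39% of the smaller one, where 16.3 to 83.0 a pair were expected from random draws of barcodes. Cells were put into compartments by marker genes other than the members, each cell in the earliest gate it met. Cardiomyocytes needed 0.2% of their UMIs from 8 sarcomere genes and at least 4 of those genes detected, BrM-like cells at least 2 of Tcf21, Msc, Lhx2, Myf5 and Myod1, aSHF-like cells Isl1 and at least 1 of Tbx1, Fgf8 and Fgf10, and pSHF-like cells at least 2 of Tbx5, Foxf1, Osr1, Wnt2 and Hoxb1. Among markers kept out of the gates, 4 of 4 were highest in cardiomyocytes by the median over libraries, 4 of 4 in the endothelial gates and 2 of 3 in BrM-like cells, but only 1 of 3 in aSHF-like and 1 of 3 in pSHF-like cells. Mef2c and Mpped2, kept as aSHF markers, were higher in cardiomyocytes, and Gata6 and Nr2f1, kept as pSHF markers, were higher elsewhere, so these names stand for the gate and not for a proven cell type. The gates also overlapped: 64.2% to 95.2% of cardiomyocytes, 78.5% to 95% of BrM-like and 53.5% to 84.1% of aSHF-like cells met another gate.

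Nkx2-5 (ENSMUSG00000015579) lies on chromosome 17 at 26838664 to 26844988, in RefSeq's GRCm38.p6 annotation. Nkx2-6 (ENSMUSG00000044186) lies on chromosome 14 at 69171802 to 69175540, and Nkx2-3 (ENSMUSG00000044220) on chromosome 19 at 43612325 to 43615892. All 3 are annotated as protein coding, and the values are UMI counts over the whole gene as the authors counted them.

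Over whole libraries Nkx2-5 stood at 36.7, 16.4, 49.7 and 22.4 CPM (UMI counts scaled to a total of 1000000 in the cells summed), from 5569, 1740, 3510 and 2860 UMIs. The order of the stages was thus E9.5, E8.0, E10.5 and E8.25, and none of the exact 95% Poisson intervals overlapped. Nkx2-6 stood at 1.33 (1.15 to 1.52), 3.99 (3.62 to 4.39), 5.37 (4.84 to 5.94) and 1.68 (1.46 to 1.92) CPM. It was higher at E8.25 and E9.5 than at the earliest and latest stages. Nkx2-3 stood at 1.06 (0.898 to 1.23), 2.48 (2.19 to 2.80), 1.49 (1.22 to 1.80) and 1.06 (0.885 to 1.25), highest at E8.25, and its E8.0 and E10.5 values lay within counting error of each other. Intervals cover counting error only. These whole-library levels mix compartments whose shares differ between the dissections, cardiomyocytes being 4.99%, 2.18%, 14.7% and 4.35% of the retained cells.

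The plot of levels by compartment separates what the whole libraries mix.

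**Figure D1:**
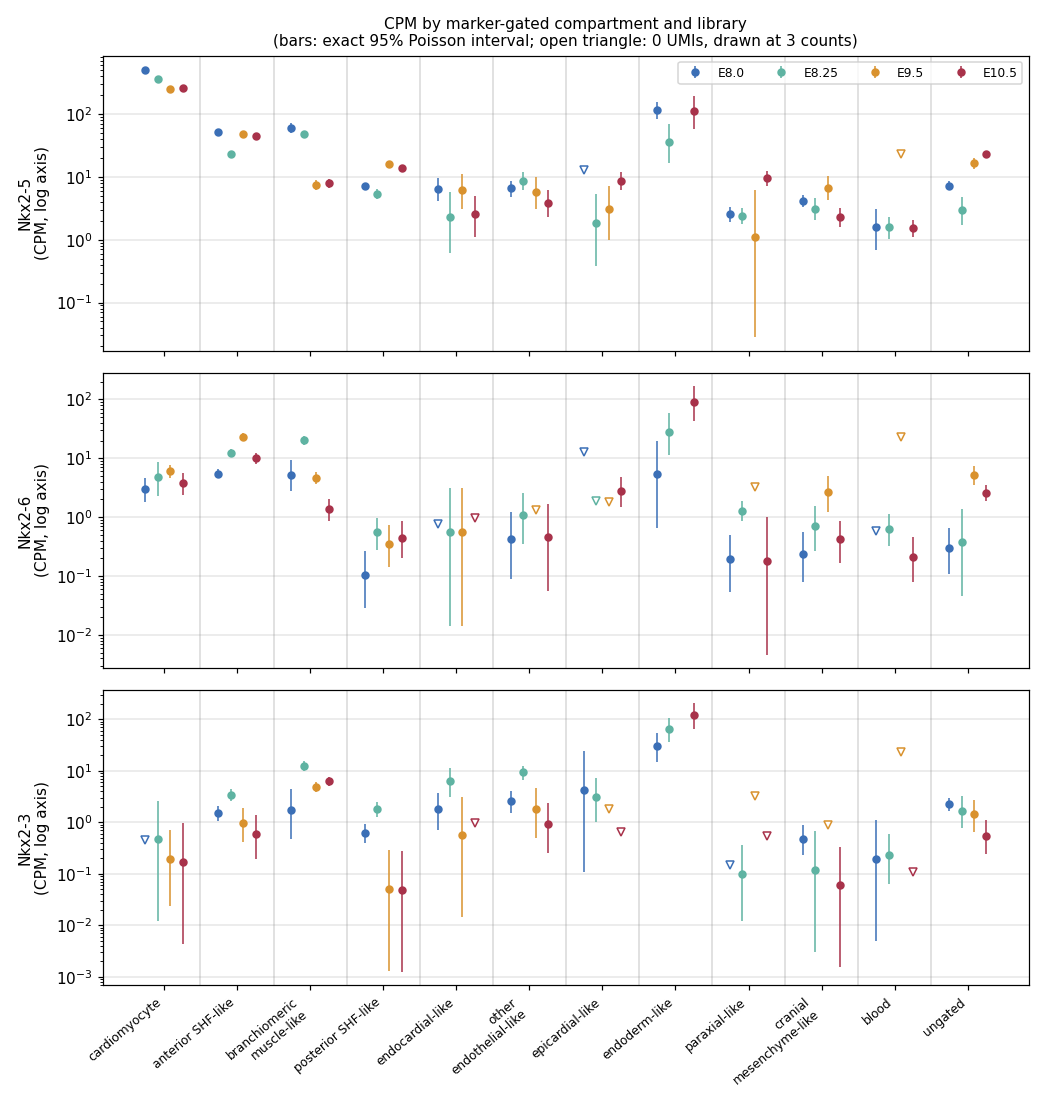
CPM (log axis) of Nkx2-5, Nkx2-6 and Nkx2-3 in each marker-gated compartment, 1 point a library with its exact 95% Poisson interval and open triangles at 3 counts where there were 0 UMIs; the few neural crest-like cells are not drawn. Nkx2-5 is highest in cardiomyocytes at every stage (245 to 503), Nkx2-6 in aSHF-like cells is above pSHF-like cells in every library, and Nkx2-3 in cardiomyocytes stays under 0.5.

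Nkx2-5 was a cardiomyocyte gene with another, lower level in aSHF-like cells. In cardiomyocytes it stood at 503, 365, 245 and 262 CPM (344 ± 118, SD, n = 4 libraries). In aSHF-like cells it stood at 52.1, 22.8, 48.1 and 45.2 (42.1 ± 13.1), and in pSHF-like cells at 7.12, 5.36, 16.3 and 13.8 (10.6 ± 5.22). The 3 ranges did not overlap. Cardiomyocytes held 60.7%, 44.4%, 71.8% and 53.5% of a library's Nkx2-5 UMIs, and aSHF-like cells 24.6%, 23.3%, 11.3% and 13.3%.

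Within cardiomyocytes the Nkx2-5 level was lower at the later stages, with a log2 ratio of −0.94 for E10.5 over E8.0 (−1.03 to −0.85, exact 95% interval). In pSHF-like cells the same ratio was 0.95, the opposite direction, and in aSHF-like cells it was −0.20. The E8.25 aSHF-like level was the low point of its series, with log2 ratios of −1.19 from E8.0 to E8.25 and 1.07 from E8.25 to E9.5. In BrM-like cells Nkx2-5 stood at 60, 47.4, 7.53 and 7.86 CPM, and the step from E8.25 to E9.5 was −2.65 (−2.97 to −2.34) on the log2 scale. None of these ratios can be tested, since each stage is 1 library.

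Nkx2-5 climbed with the share of a cell's UMIs that came from the 8 sarcomere genes, the contractile proteins that mark differentiating muscle. Below a share of 0.05% it stood at 12.4, 9.57, 12.7 and 12.1 CPM in the 4 libraries, in stage order. At shares of 0.2% to 0.5% the libraries parted, at 262 and 149 for E8.0 and E8.25 against 51.7 and 44.5 for E9.5 and E10.5. At 0.5% to 2% the values were 536, 401, 79.2 and 195. In both of these bins the earlier libraries thus lay above the later ones. At 2% to 5% the values were 642, 694, 375 and 418, the E8.25 one from 16 cells, with the same order of earlier and later libraries. Above 5%, where the earlier libraries had 5 cells and 1 cell, E9.5 and E10.5 reached 508 and 540. The bins do not separate heart muscle from other muscle that uses the same sarcomere genes.

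**Figure D2:**
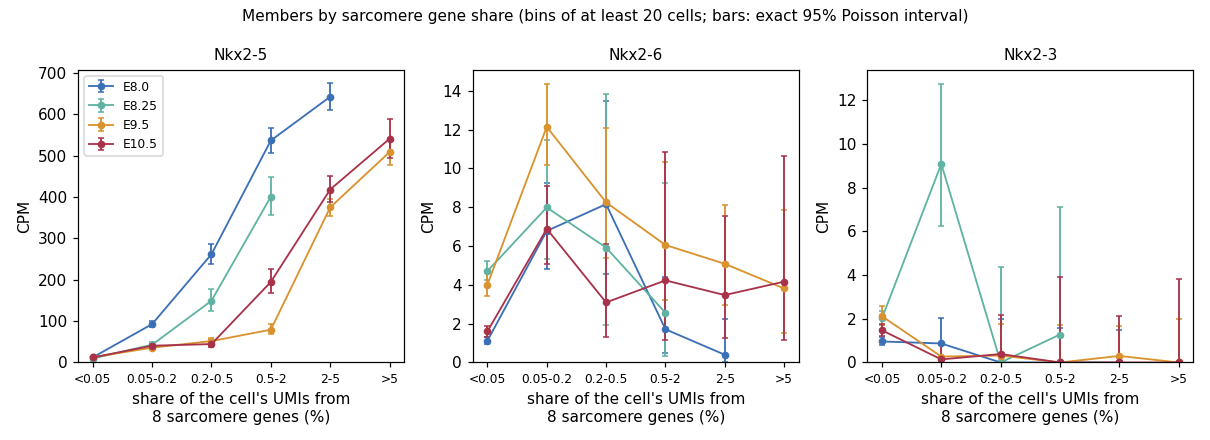
CPM of each member (linear axis) against the share of a cell's UMIs from 8 sarcomere genes, in bins of at least 20 cells outside the blood, endothelial and endoderm-like gates, 1 line a library with exact 95% Poisson intervals. Nkx2-5 rises from 12.4 to 642 at E8.0, Nkx2-6 peaks in the low bins, and Nkx2-3 lies near 0 above a share of 0.2%.

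Outside the few endoderm-like cells, Nkx2-6 was highest in aSHF-like cells in every library but that of E8.25, where BrM-like cells were higher, and at E8.0 those gates lay within counting error of each other. In aSHF-like cells it stood at 5.52, 12.5, 23.4 and 10.1 CPM (12.9 ± 7.58, SD, n = 4 libraries). In cardiomyocytes it stood at 2.97, 4.73, 6.14 and 3.77 (4.40 ± 1.36), lower than in aSHF-like cells of the same library each time. In pSHF-like cells it stood at 0.103, 0.551, 0.357 and 0.446 (0.364 ± 0.191). In BrM-like cells it stood at 5.30, 20.3, 4.63 and 1.35, so that the E8.25 library lay far above the other three. The aSHF-like gate held 72.1%, 52.7%, 50.7% and 39.5% of the libraries' Nkx2-6 UMIs, while its cells were 15.7%, 16.4%, 11.6% and 6.94% of the cells.

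Among aSHF-like cells Nkx2-6 went with Fgf8 and Fgf10, ligands of the pharyngeal and heart-field mesoderm that the gate itself uses. Cells with Fgf8 UMIs held 7.99, 18.8, 43.0 and 38.0 CPM of Nkx2-6, against 0.463, 1.12, 16.7 and 9.0 in cells without. Cells with Fgf10 UMIs held 8.06, 22.0, 30.0 and 20.8, against 3.97, 5.93, 18.9 and 5.93. The direction was the same in 4 of 4 libraries for both ligands. Tbx1, the transcription factor that completes the gate, split the libraries: cells with it held 7.10, 13.6, 21.5 and 8.71, against 2.30, 8.56, 29.7 and 16.9 without, higher at the earlier stages and lower at the later ones. Cells of this gate without Tbx1 must hold Fgf8 or Fgf10, so the gate itself shapes all 3 of these splits.

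Most Nkx2-6 UMIs of cardiomyocytes, 13 of 20, 7 of 10, 50 of 63 and 21 of 22, were in cells with outflow genes. Cardiomyocytes were sorted by whichever of 3 short lists they had most of, with at least 2 genes detected: outflow (Isl1, Sema3c, Rspo3, Bmp4), atrial (Nr2f1, Nr2f2, Vsnl1, Tbx5) or ventricular (Irx4, Hey2, Myl2, Pln). In the outflow-like cells Nkx2-6 stood at 8.75, 15.7, 48.4 and 14.6 CPM, from those UMIs in 70, 14, 69 and 89 cells. In the atrial-like cells it stood at 0, 0.986, 1.07 and 0.418, and in the ventricular-like cells at 0, 0, 1.23 and 0. Every outflow-like value lay above every atrial-like and ventricular-like one. At E8.25 the 7 ventricular-like cells were too few to tell, since 3 counts there make 13.8 CPM. Nkx2-5 showed no such gap: it stood at 332, 289, 447 and 253 in outflow-like, 477, 382, 155 and 349 in atrial-like and 633, 455, 399 and 357 in ventricular-like cells. Isl1 stands in both the outflow list and the aSHF-like gate, so the outflow-like cells and the aSHF-like cells are not independent readouts, and the split is given as a description.

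**Figure D3:**
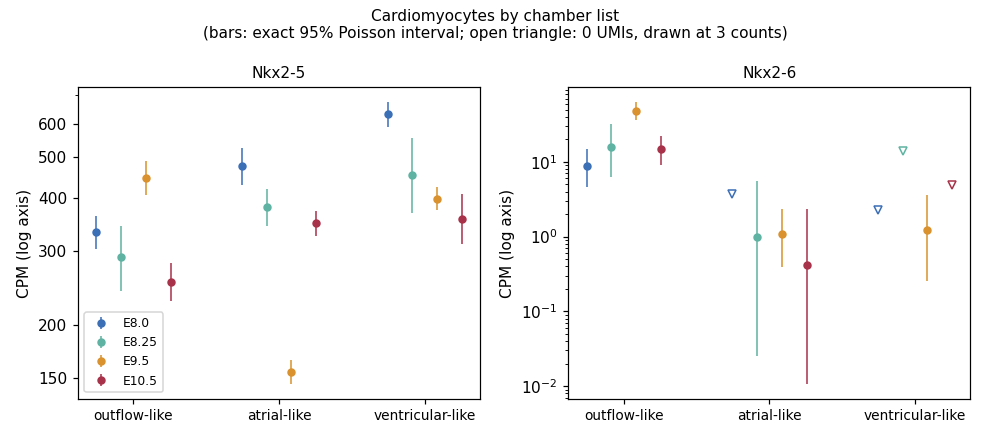
CPM (log axes) of Nkx2-5 and Nkx2-6 in cardiomyocytes sorted by outflow, atrial and ventricular gene lists, 1 point a library with its exact 95% Poisson interval and open triangles at 3 counts for 0 UMIs. Nkx2-6 in outflow-like cells (8.75 to 48.4) stands above the chambers (0 to 1.23), whereas Nkx2-5 is present in all 3 sets.

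Most Nkx2-3 UMIs of the later libraries were in BrM-like cells, and the gene was nearly missing from heart muscle. In BrM-like cells it stood at 1.77, 12.5, 4.94 and 6.27 CPM (6.37 ± 4.52, SD, n = 4 libraries), from 4, 74, 80 and 102 UMIs. In aSHF-like cells it stood at 1.48, 3.43, 0.974 and 0.593 (1.62 ± 1.26), and in cardiomyocytes at 0, 0.473, 0.195 and 0.172. BrM-like cells held 2.50%, 28.1%, 76.2% and 75.6% of the Nkx2-3 UMIs, and in the 2 later libraries they were 20.8% and 13.5% of the cells. At E8.0 the gene was spread thinly, with 28.1% of its UMIs in cells that met no gate, 24.4% in aSHF-like and 15.0% in pSHF-like cells.

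Myf5, a muscle-determination factor used in the BrM-like gate, marked a richer set in the later libraries: BrM-like cells with Myf5 UMIs held 10.1 and 12.1 CPM of Nkx2-3 at E9.5 and E10.5, against 2.73 and 3.33 without. In the earlier libraries 12 and 11 cells had Myf5, with 0 and 5 Nkx2-3 UMIs, too few to compare. Single cells weighed heavily on this rare gene. At E8.25, 1 aSHF-like cell with 40493 UMIs held 37 of the gate's 61 Nkx2-3 UMIs (60.7%), together with 5 UMIs of Nkx2-6 and UMIs of 2 of the 5 endoderm gate genes. In the endothelial gates Nkx2-3 reached 9.33 CPM in the other endothelial-like cells at E8.25, against 2.56, 1.80 and 0.913 in the other libraries.

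Cardiomyocytes and aSHF-like cells differed in Nkx2-5 and Nkx2-6. Counts were summed per library and compartment and compared with edgeR's quasi-likelihood test with the library as a block (n = 4 libraries, Benjamini-Hochberg adjustment over 12611 genes). In this contrast 17.2% of genes were called higher in cardiomyocytes and 16.7% higher in aSHF-like cells. Nkx2-5 was higher in cardiomyocytes by 3.06 ± 0.292 on the log2 scale (SE; adjusted p = 0.00174), in 4 of 4 libraries with no overlap. Nkx2-6 was lower in cardiomyocytes, with a log2 difference of −1.43 ± 0.203 (adjusted p = 0.00271) in 4 of 4 libraries, although the ranges overlapped across libraries. Nkx2-3 had 0, 1, 2 and 1 UMIs in cardiomyocytes against 39, 61, 8 and 5 in aSHF-like cells. It passed the filter on low counts through the aSHF-like sums alone, so these values are given as a description with no test. With no block the Nkx2-6 call was lost, at −1.49 (adjusted p = 0.0535).

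Against pSHF-like cells, aSHF-like cells differed most in Nkx2-6, which was 5.13 higher on the log2 scale, in 4 of 4 libraries with no overlap. It had 145, 223, 192 and 85 UMIs in aSHF-like cells against 4, 11, 7 and 9 in pSHF-like cells. Nkx2-6 passed the filter on low counts through the aSHF-like sums, so its values are given as a description with no test. In this contrast 1.32% of 13664 genes were called higher in aSHF-like cells and 1.44% higher in pSHF-like cells. Nkx2-5 was 2.08 ± 0.280 higher in 4 of 4 libraries with no overlap and missed the threshold (adjusted p = 0.0585), while without the E8.0 library it was 1.77 higher and passed (adjusted p = 0.000921). Nkx2-3 was 1.54 ± 0.423 higher in 4 of 4 libraries and was not called (adjusted p = 0.104). With no block the log2 difference of Nkx2-6 was 5.18. DESeq2 with the same block called Nkx2-5 (2.06; adjusted p = 1.47e-16).

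Between aSHF-like and BrM-like cells, Nkx2-3 was the member called, and it was lower in aSHF-like cells, with a log2 difference of −1.99 ± 0.335 (adjusted p = 0.0276; 4 of 4 libraries). In this contrast 0.553% of 13020 genes were called higher in aSHF-like and 0.576% higher in BrM-like cells. The call was lost without the E8.25 library (−2.09; adjusted p = 0.127), without the E9.5 library (−1.94; adjusted p = 0.135), with no block (−1.95; adjusted p = 1.00) and, in a check chosen after the values were seen, without the E8.25 cell of 37 Nkx2-3 UMIs (−2.50; adjusted p = 0.0510). Stricter gates, where 3 libraries had enough cells, shrank it to −0.72 (adjusted p = 0.382), and gates on counts thinned to 6000 UMIs a cell shrank it to −0.21 (adjusted p = 0.892, again 3 libraries). Nkx2-5 was 0.92 ± 0.949 higher in aSHF-like cells (adjusted p = 0.900) and Nkx2-6 1.12 ± 0.876 higher (adjusted p = 0.836), with the libraries split 2 against 2 and 3 against 1 in direction.

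Those wide errors covered different ratios in early and late libraries, with an opposite direction beyond counting error at E8.25 alone. The log2 ratio of aSHF-like to BrM-like cells for Nkx2-5 was −0.20 (−0.46 to 0.06, exact 95% interval) and −1.05 (−1.28 to −0.83) in the earlier libraries, but 2.67 (2.38 to 2.98) and 2.52 (2.23 to 2.82) in the later ones. For Nkx2-6 it was 0.06 (−0.79 to 1.04), −0.70 (−1.02 to −0.36), 2.34 (1.94 to 2.74) and 2.90 (2.21 to 3.65). In the earlier libraries BrM-like cells thus matched or exceeded aSHF-like cells in both genes, and in the later ones they fell well below. A term for the later against the earlier libraries, chosen after these values were seen, gave 3.22 ± 0.338 for Nkx2-5 (adjusted p = 0.0407) and 3.02 ± 0.298 for Nkx2-6 (adjusted p = 1.38e-05), among 0.737% of genes called larger in the later libraries and 0.43% called smaller. The same term for Nkx2-3 was −1.31 (adjusted p = 0.451). Of 11 such terms over the 4 contrasts these were the pair that passed, the others having adjusted p values from 0.0840 to 0.918. Genes called larger or smaller by this term made up 2.35% and 1.09% in the cardiomyocyte contrast, 1.46% and 0.973% in that with pSHF-like cells and 2.1% and 1.98% in the endothelium. The term has 2 libraries on each side, and stage, dissected region and depth cannot be told apart in it. Median UMIs a cell were 21321 and 35216 in the earlier libraries against 17254 and 15205 in the later ones. Gates on counts thinned to 6000 UMIs left 17 and 28 BrM-like cells at E8.0 and E8.25, in place of 92 and 160. Stricter gates left 0 and 37. The term was not fitted with those gates.

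The BrM-like gate stands before the anterior gate in the order, and many of its cells met both: 57.6%, 71.2%, 55.7% and 38.1% in the 4 libraries. BrM-like cells that also met the anterior gate held Nkx2-5 at 82.4, 64.5, 9.60 and 4.27 CPM, against 30.0, 4.74, 4.69 and 10.3 in those that did not. The cells that met both gates thus went from above the aSHF-like level at E8.0 and E8.25 to far below it later. Nkx2-6 stood at 9.24, 28.0, 7.15 and 3.05 in the cells that met both gates and at 0, 1.18, 1.17 and 0.206 in the rest, higher with the anterior gate in 4 of 4 libraries. For Nkx2-3 the values were 3.08, 12.8, 6.19 and 12.7 with the anterior gate and 0, 11.8, 3.23 and 1.95 without. With all cells of more than 1 gate left out, BrM-like cells numbered 5, 8, 169 and 219, so that the later libraries alone entered the test, and Nkx2-5 and Nkx2-6 were 2.91 and 4.60 higher in aSHF-like cells there (both adjusted p = 2.75e-06). That test holds nothing on the earlier libraries.

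**Figure D4:**
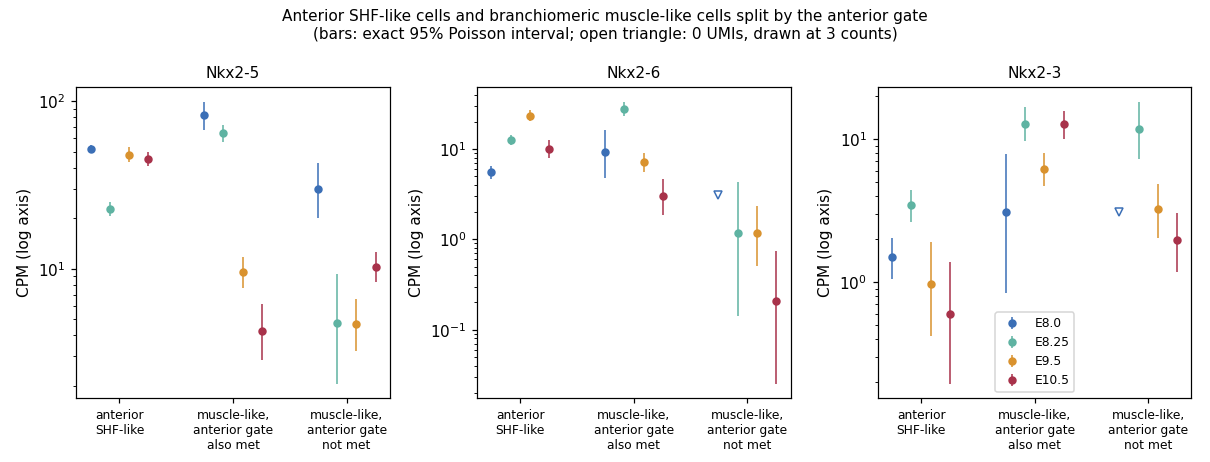
CPM (log axes) of the 3 members in aSHF-like cells and in BrM-like cells that did or did not also meet the anterior gate, 1 point a library with its exact 95% Poisson interval and open triangles at 3 counts for 0 UMIs. In cells that met both gates Nkx2-5 goes from 82.4 at E8.0 to 4.27 at E10.5, while aSHF-like cells stay between 22.8 and 52.1.

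In the endothelium the endocardial-like cells, which line the heart and were picked by the transcription factor Nfatc1, did not differ detectably from other endothelial-like cells. Nkx2-5 stood at 6.42, 2.26, 6.22 and 2.54 CPM in endocardial-like cells and at 6.54, 8.68, 5.84 and 3.88 in the others. The difference was −0.47 ± 0.308 on the log2 scale (adjusted p = 0.834), in a contrast where edgeR called 0.0461% of 10838 genes higher in endocardial-like cells and 0.0277% higher in the others. At E8.25, 1 cell with all 8 sarcomere genes detected held 22 of the 40 Nkx2-5 UMIs of the other endothelial-like cells. Nkx2-3 stood at 1.80, 6.22, 0.566 and 0 against 2.56, 9.33, 1.80 and 0.913, a difference of −0.78 ± 0.436 (adjusted p = 0.825), lower in endocardial-like cells in 4 of 4 libraries. At E8.25, 1 endocardial-like cell held 9 of the 11 Nkx2-3 UMIs of that gate. Nkx2-6 had too few UMIs to pass the filter on low counts. No member was called at an adjusted p of 0.05 by DESeq2 here.

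Endoderm-like cells were few, 13, 9, 0 and 7 in the 4 libraries, in a sort for mesoderm, yet they held the members at high density. Nkx2-3 stood at 29.9, 64.6 and 119 CPM at E8.0, E8.25 and E10.5, from 11, 16 and 13 UMIs. Nkx2-6 stood at 5.44, 28.3 and 91.5, from 2, 7 and 10 UMIs, and Nkx2-5 at 114, 36.4 and 110, from 42, 9 and 12 UMIs. Single cells weighed heavily here: 1 cell held 40 of the 42 Nkx2-5 UMIs at E8.0, and 1 cell held 7 of 9 and 10 of 12 at E8.25 and E10.5. That same E8.0 cell held 8 of the 11 Nkx2-3 UMIs and the 2 Nkx2-6 UMIs, and 1 cell held 7 of the 10 Nkx2-6 UMIs at E10.5. Elsewhere the leading cell held less, with 7 of 16 and 5 of 13 Nkx2-3 UMIs at E8.25 and E10.5 and 3 of 7 Nkx2-6 UMIs at E8.25. Among the kept endoderm markers Sox2 was highest in these cells, and Krt8 and Krt18 were higher in the epicardial-like gate. These values describe a handful of cells and were not tested.

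Overlap between members was read in single cells thinned to 6000 UMIs each, which left out 63, 0, 88 and 272 shallower cells. Cells with Nkx2-6 often held Nkx2-5 as well: 22 of 53 (41.5%, exact 95% interval 28.1 to 55.9), 24 of 70 (34.3%, 23.3 to 46.6), 43 of 112 (38.4%, 29.4 to 48.1) and 25 of 70 (35.7%, 24.6 to 48.1). In cells without an Nkx2-6 UMI the shares were 10.1%, 5.22%, 12.9% and 5.99%, below every one of those intervals. Compartments differ in both genes, so the split was repeated within aSHF-like cells. There Nkx2-5 was found in 39.5%, 38.9%, 30.4% and 29.2% of Nkx2-6-positive cells against 20.7%, 9.86%, 15.9% and 11.7% of the rest. In cardiomyocytes 5 of 6, 1 of 1, 15 of 16 and 5 of 7 Nkx2-6-positive cells held Nkx2-5, against 85.6%, 72.6%, 51.6% and 58.8% of the rest, so that the E9.5 library alone showed an excess beyond its interval (69.8% to 99.8%).

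Outside the E8.25 library Nkx2-3 showed no excess of cells shared with Nkx2-5 beyond counting error, over all cells and with 1 UMI taken as positive. Of its positive cells 6 of 44, 6 of 40, 3 of 24 and 0 of 38 held Nkx2-5 (13.6%, 15.0%, 12.5% and 0%, the last with an exact upper limit of 9.25%), against 10.3%, 5.80%, 13.7% and 6.31% of cells without Nkx2-3. At E8.25 the share with Nkx2-5 grew with depth, to 14 of 45 cells at 10000 UMIs (31.1%, 18.2 to 46.6) against 7.36% of the rest and to 33 of 92 unthinned (35.9%, 26.1 to 46.5) against 15.5%, and both intervals lay above the rest. In the other 3 libraries the intervals at those depths reached the share of the rest. With 2 UMIs taken as positive, unthinned, E8.0 also showed an excess, 7 of 26 cells (26.9%, 11.6 to 47.8) against 9.69%. E9.5 and E10.5 showed none. Among aSHF-like cells at E8.0 it was 8 of 13 at 10000 UMIs (61.5%, 31.6 to 86.1) against 26.2%, but 14 of 25 unthinned (56.0%, 34.9 to 75.6) against 36.5%. With Nkx2-6, Nkx2-3 shared 1, 4, 2 and 1 cells at 6000 UMIs, and the 4 at E8.25 were 10.0% (2.79 to 23.7) against 2.32% of the rest. All 3 members were found together in 1, 2, 1 and 0 thinned cells, and in 1, 12, 2 and 1 cells at full depth. Of the 12 at E8.25, 8 were BrM-like. Blood cells, which should lack the genes, were taken as a guide to background: 1.33%, 0.938% and 1.08% held an Nkx2-5 UMI at E8.0, E8.25 and E10.5 (the E9.5 library had 5 blood cells), against 85.6%, 73.0% and 59.0% of cardiomyocytes at the same depth. Unthinned, 1 blood cell at E10.5 held 9 of that gate's 43 Nkx2-5 UMIs, and the source of the UMIs in blood cells was not tested. Detection at this depth misses many low cells, since 87 of 129, 112 of 189, 116 of 207 and 86 of 133 Nkx2-6-positive cells held a single UMI even before thinning. Unthinned, the Nkx2-6-positive cells with Nkx2-5 were 69.0%, 55.0%, 46.9% and 44.4%.

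**Figure D5:**
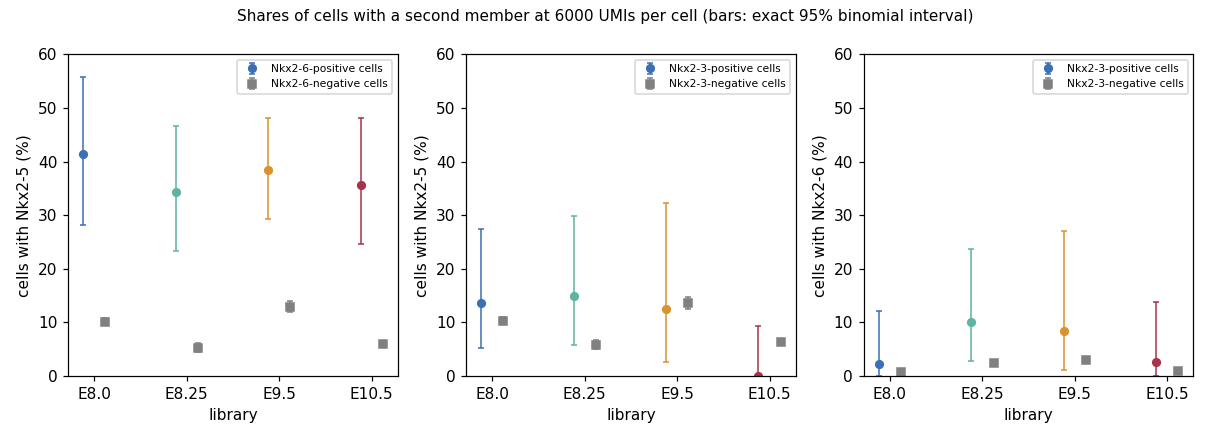
Share of cells (%) with a given member among cells positive (coloured circles) or negative (grey squares) for another, by library, after thinning to 6000 UMIs a cell, with exact 95% binomial intervals. Nkx2-6-positive cells hold Nkx2-5 in 34.3% to 41.5% of cases against 5.22% to 12.9% of the rest, while the Nkx2-3 intervals reach down to or near the shares of the negative cells.

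The genes whose pattern lay closest to each member were found over 41 sums of library and compartment, on log2(CPM + 1), among 9220 genes. Nkx2-5 was most like Rbm24 (Pearson's r = 0.907), Nebl (0.868), Cap2 (0.865), Tcea3 (0.859) and Smyd1 (0.852). Rbm24 is a muscle splicing factor, Nebl encodes a Z-disc protein and Smyd1 a muscle methyltransferase. Nkx2-6 was most like Nkx2-5 (0.695) and, with the members set aside, Fam213a (0.673), Igfbpl1 (0.670), Dusp14 (0.666), Tlx1 (0.634) and Fhl1 (0.624). Nkx2-3 was most like Hlx (0.674), a mesenchymal homeobox gene, then Zc3h10 (0.603), Egln3 (0.603), Dusp4 (0.578) and Tmem158 (0.574). Among the other pairs of members r was 0.311 for Nkx2-6 with Nkx2-3 and 0.044 for Nkx2-5 with Nkx2-3. The sums share 4 libraries and their depth, so these values are descriptions of pattern.

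Other cardiac transcription factors were also mostly higher in cardiomyocytes. Of 18 counted in the cardiomyocyte contrast with aSHF-like cells (Tbx1 and Isl1 being gate genes), 15 were higher in cardiomyocytes, 1 in aSHF-like cells and 2 were not called, with a median log2 difference of 1.86. Over all genes tested the median was −0.02, and 17.2% were called higher in cardiomyocytes. Irx4, a ventricular factor, was 5.83 ± 0.463 higher (adjusted p = 0.000350), Myocd, the coactivator of serum response factor, 4.54 ± 0.127 (adjusted p = 1.48e-06) and Tbx20 4.11 ± 0.206 (adjusted p = 9.08e-05). Tbx3, a conduction-system repressor, was the member of the list that was lower, at −1.05 (adjusted p = 0.00959). Against pSHF-like cells, Hopx (3.29 ± 0.294; adjusted p = 0.0177) and Mef2c (1.66 ± 0.107; adjusted p = 0.00137) were higher in aSHF-like cells, Gata4 was lower (−1.08 ± 0.0714; adjusted p = 0.000272) and 14 of 17 were not called. Over all genes 1.32% were called higher in aSHF-like and 1.44% higher in pSHF-like cells. Between aSHF-like and BrM-like cells edgeR called 0 of 17 and DESeq2 0, with 2 at an unadjusted p under 0.05. Of all genes edgeR called 0.553% higher in aSHF-like and 0.576% higher in BrM-like cells. In endocardial-like cells Gata4 was 1.33 ± 0.194 higher than in other endothelial-like cells (adjusted p = 0.0388), and the other 16 that passed the filter were not called. DESeq2 called 0 of these 17 there. Of all genes edgeR called 0.0461% higher in endocardial-like cells and 0.0277% higher in the others.

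Genes known to lie downstream of Nkx2-5 were counted as another list. Of 14 counted, 11 were higher in cardiomyocytes than in aSHF-like cells, 1 was lower and 2 were not called, with a median log2 difference of 5.08. Over all genes tested 17.2% were called higher in cardiomyocytes and 16.7% higher in aSHF-like cells. The natriuretic peptide genes Nppa (8.28 ± 0.561; adjusted p = 0.000714) and Nppb (7.37 ± 0.863; adjusted p = 0.00410) and Csrp3, a Z-disc protein (8.03 ± 0.117; adjusted p = 9.34e-08), showed the largest differences, and the gap junction gene Gja1 was the lower one (−1.38; adjusted p = 0.000472). Several of these genes belong to the muscle programme that the gate selects. edgeR called 0 of 10 between aSHF-like and pSHF-like cells (4 at an unadjusted p under 0.05, and 2 by DESeq2), 0 of 9 between aSHF-like and BrM-like cells (1 unadjusted, 0 by DESeq2) and 0 of 8 in the endothelial contrast (2 unadjusted, 0 by DESeq2). Over all genes the shares called in the 2 directions were 1.32% and 1.44%, 0.553% and 0.576%, and 0.0461% and 0.0277%. Counts of 0 in such short lists lie near these shares.

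Other NK genes were not all sparser than the members. Nkx6-1 stood at 9.11 and 11.1 CPM over the whole E9.5 and E10.5 libraries, above Nkx2-6 (5.37 and 1.68) and Nkx2-3 (1.49 and 1.06). At E8.0 Nkx1-2 stood at 8.45, against 1.33 for Nkx2-6 and 1.06 for Nkx2-3. Of 10 listed, 4 passed the filter in the cardiomyocyte contrast and 2 of those were higher in aSHF-like cells, as were 16.7% of all 12611 genes tested. Nkx6-1, a homeobox gene best known from the neural tube and pancreas, was among them, with a log2 difference, cardiomyocytes over aSHF-like cells, of −2.93 ± 0.776 (adjusted p = 0.0290). Between aSHF-like and pSHF-like cells edgeR called 0 of 4 (2 at an unadjusted p under 0.05, and 2 by DESeq2), and between aSHF-like and BrM-like cells 0 of 4 (0 and 0). Over all genes the shares called in the 2 directions were 1.32% and 1.44%, and 0.553% and 0.576%.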

How the data were processed

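The deposited files were filtered 10x matrices of raw UMI counts, made by the authors with Cell Ranger 3.1.0 (per the labels) on mm10, 1 matrix a library. Cells with fewer than 1000 genes or over 10% mitochondrial UMIs were left out, and doublets scored with Scrublet in scanpy 1.11.5 were removed at 0.8% per 1000 cells (70 to 517 a library). Levels are CPM of summed counts with exact Poisson intervals, which cover counting error only. Contrasts used edgeR 4.0.16 (TMM, filterByExpr, quasi-likelihood, library as block, adjusted p of 0.05) on sums of at least 20 cells, with DESeq2 1.42.0 as an alternative, in R 4.3.3. Same-library sums come from the same pooled embryos, which is why they were paired, and p-values measure the spread among 4 libraries of different stages. The main edgeR contrasts were tested on simulated data, while the DESeq2 fits and the term for later against earlier libraries were not. Likeness used genes of a mean of at least 5 CPM in sums of at least 50 cells. A list gene was named where it was called with a leading log2 difference, up to 3 a list. Genes lower in a list against its direction were named after their values were seen. Coordinates are those of RefSeq. The members and lists were chosen with earlier results of these data known. The values of 1 listed gene are not reported here.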

Additional observations from a re-analysis of the deposited data

Results flagged for a closer look

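The contrast of aSHF-like with BrM-like cells differed between the later (E9.5 and E10.5) and the earlier (E8.0 and E8.25) libraries, by a direct test of that difference in edgeR. For Nkx2-5 the log2 difference was 3.22 ± 0.338 larger in the later libraries (adjusted p = 0.0407), and for Nkx2-6 it was 3.02 ± 0.298 larger (adjusted p = 1.38e-05). Both ratios were larger in 2 of 2 later than in 2 of 2 earlier libraries. The test was chosen after the values were seen, and stage, dissected region and depth cannot be told apart in it.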

How the results depend on the processing

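Of 123 alternative values of the compartment contrasts, 106 kept their direction and their side of the threshold, 9 lost a call, 7 gained one and 1 reversed, while 21 could not be had, most of them Nkx2-6 in the endothelium and 4 of them Nkx2-3 in cardiomyocytes against aSHF-like cells. The counts include the results given above as descriptions, Nkx2-3 in cardiomyocytes against aSHF-like cells and Nkx2-6 in aSHF-like against pSHF-like cells. Nearly all values of those kept their side, so the counts overstate how stable the tested calls were. Without the library block, which pairs sums of the same library, calls were lost for Nkx2-6 in cardiomyocytes against aSHF-like cells (−1.49) and Nkx2-3 in aSHF-like against BrM-like cells (−1.95). Nkx2-6 in aSHF-like against pSHF-like cells, given above as a description, was also not called then (5.18). Nkx2-3 in cardiomyocytes against aSHF-like cells gave no value, and no other member's call changed. For aSHF-like against BrM-like cells, leaving out each library gave −2.29 to −1.72 for Nkx2-3, and its call was also lost with stricter gates (−0.72), gates on thinned counts (−0.21), cells of more than 1 gate left out (−1.95; Nkx2-5 2.91 and Nkx2-6 4.60 were then called), a setting that kept E9.5 and E10.5 alone and, chosen after seeing the data, without the cell of the highest count (−2.50). For aSHF-like against pSHF-like cells Nkx2-5 was called by DESeq2 (2.06), with stricter gates (1.65) and without E8.0 (range over libraries left out 1.77 to 2.26), and Nkx2-3 with stricter gates (3.76) and thinned gates (3.54). In endocardial-like cells Nkx2-5 turned to 0.92 with stricter gates (adjusted p = 0.531). The E10.5 to E8.0 log2 ratio of Nkx2-5 was −0.54 without haemoglobin, mitochondrial and ribosomal protein genes and −0.43 without blood cells, against −0.72. The overlap of Nkx2-6 with Nkx2-5 at E8.0 was 60.9% at 10000 UMIs, 69.0% unthinned and 66.7% at 2 UMIs, and at E8.25 55.0% unthinned and 71.4% at 2 UMIs. Over all settings the genes called numbered 1345 to 4738 (4286 as reported) for cardiomyocytes against aSHF-like cells, 0 to 575 (147) for aSHF-like against BrM-like, 1 to 663 (378) for aSHF-like against pSHF-like and 1 to 165 (8) in the endothelium, the lowest counts coming without the block in each and, in the endothelium, also with DESeq2. The causes were not tested.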
